A study of Ovis aries and Bos taurus with 15 samples.

Results

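Solute carriers are membrane proteins that move sugars, amino acids, ions, vitamins, nucleosides and drugs across membranes, either down a gradient or coupled to sodium, protons or an exchanged solute. In endothelial cells they set the supply of glucose and of arginine, the substrate of nitric oxide synthase, control cell volume and pH, and clear mediators such as adenosine and prostaglandins. Related families sit inside the cell and load the Golgi, lysosomes or vesicles.

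The genes described here are those whose symbol starts with SLC and a digit or with SLCO, taken from array probe sets with exactly 1 gene symbol. SLC7A11 and the SLC16A, SLC25A, SLC30A and SLC39A families were left out, which removed 67 probe sets of 47 genes. The rule found 139 of the 9155 named genes, measured by 194 of 24016 probe sets. A single probe set measured 101 of the genes, and the other 38 had up to 4 each. The genes were sorted into 15 classes by substrate and place. The label of this group, plasma membrane carriers, holds for most classes but not for all. The rule also kept carriers of the Golgi and endoplasmic reticulum (SLC33, SLC35 and SLC37), carriers of vesicles and lysosomes (most of the SLC17, SLC18 and SLC66 genes) and the mitochondrial sodium and calcium exchanger SLC8B1. It further kept SLC4A1AP and SLC7A6OS, whose symbols name a neighbour or partner of a carrier rather than a carrier.

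RNA was measured on 15 Affymetrix bovine arrays, 1 per sample, in 3 groups of 5. Ovine cells that the labels call PAEC (the title speaks of pulmonary endothelium) were given GW9662 at 5 µM for 24 h. Bovine cells called BAEC formed the control of the other species, and whether they received vehicle is not stated. Ovine PAEC given DMSO alone were the vehicle group. All cells grew in serum-containing DMEM, and no genotype, animal age or passage is given. GW9662 binds PPARγ covalently and blocks it; PPARγ is the nuclear receptor best known for turning on lipid uptake and storage genes. Whether replicates came from separate cultures or animals is not stated. The spread between them may be technical, and p-values cover no more than that spread.

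The deposited values are log2 expression from RMA, and all levels below are on that scale. They ran from 0.899 to 14.07, with array medians of 3.18 to 3.27. Of 13 endothelial markers, 11 were measured, and their mean per array was 7.77 to 8.0 with GW9662, 8.33 to 8.48 in bovine and 7.81 to 7.90 in ovine vehicle cells. VWF was under 3 in every group, CLDN5 was under 3 in ovine GW9662 and vehicle cells, and KDR was under 3 in ovine vehicle cells only. All 5 measured epithelial markers and 5 of 6 smooth muscle markers were under 3. TAGLN, of smooth muscle, averaged 7.16 with GW9662, 9.0 in bovine and 7.18 in vehicle cells, and 5 of 7 fibroblast markers were under 3 in every group, with COL1A2 and COL3A1 above 10. Among 5 measured leukocyte markers, CD14 averaged 6.72 with GW9662, 2.27 in bovine and 6.69 in vehicle cells, and the other 4 were under 3. The mean difference between 3′ and 5′ control probe sets, a sign of RNA integrity, was 0.853 to 1.04 with GW9662, 0.843 to 0.942 in bovine and 1.07 to 1.30 in vehicle cells. The vehicle arrays lay above each other group (exact two-sided permutation p = 0.00794, the smallest that 5 against 5 arrays allow). Vehicle replicate 1 stood apart from its group, with a root mean square distance of 0.284 to the rest of it, against 0.130 to 0.180 for the other 14 arrays. Where these measures move with a result below, their part in it was not tested. In bulk RNA, fewer cells of a type and less RNA per cell cannot be told apart.

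Many carriers lay near the bottom of the scale. Of the 194 carrier probe sets, 128 (66.0%) had a mean under 3 over the 15 arrays, against 45.9% of all probe sets, and 78 of the 139 genes were under 3 in all 3 groups on the probe set that stood for them. Probe sets with a mean under 3 over the 10 arrays of a comparison are called dim here. The files hold no detection call, so a dim value may mean a low level or none. A gene with several probe sets is represented by the brightest of them over those 10 arrays. The dim genes included carriers with known endothelial, vascular or PPAR roles. Among them were the glucose carriers SLC2A3 and SLC2A4, the fatty acid carriers SLC27A1 and SLC27A4, the serotonin carrier SLC6A4 and the taurine carrier SLC6A6. The folate carrier SLC19A1, the ascorbate carrier SLC23A2 and the glutamate carrier SLC1A1 were dim as well. SLC2A4 averaged 2.03 with GW9662, 2.02 in bovine and 2.04 in vehicle cells, and SLC6A4 averaged 2.43 with GW9662, 2.42 in bovine and 2.44 in vehicle cells.

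The first comparison asked whether GW9662 changed carrier RNA in ovine PAEC. Whether PPARγ was blocked in these cells was not tested. No carrier passed the threshold, an adjusted p under 0.05 from limma adjusted by Benjamini-Hochberg over all 24016 probe sets. The count was 0 of 194 probe sets and 0 of 139 genes, where 0.183% of all probe sets (44 of 24016) and 0.218% of all genes by their brightest probe set passed. At an unadjusted p under 0.05 there were 39 carrier probe sets, or 20.1%, against 21.4% of all, of which 14 were higher (6.87% of all were) and 25 lower with GW9662 (14.5% of all were). Of the 25 genes known from endothelial or PPAR biology that were measured, 0 rose, 0 fell and 25 did not pass.

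The lowest p-values belonged to carriers of glucose, chloride and neutral amino acids. SLC2A1, the main glucose carrier of endothelial cells, was at 7.68, 7.64, 7.58, 7.61 and 7.59 with GW9662, against 7.92, 7.90, 7.85, 7.74 and 7.96 with vehicle. All 5 GW9662 arrays lay below all vehicle arrays. The difference, GW9662 minus vehicle, was -0.26 (SE 0.041, 95% interval -0.35 to -0.16), a 1.2-fold lower signal, with an adjusted p of 0.0627. It passed the threshold in 4 of 21 alternative settings, which were 1 probe set per gene, all 15 arrays in one fit, array weights and leaving out vehicle replicate 4, and its adjusted p ranged from 0.0224 to 0.837 over the 21.

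SLC12A2, the sodium, potassium and chloride cotransporter that brings chloride into the cell, was at 9.02, 8.93, 8.83, 8.88 and 8.90 with GW9662, against 8.62, 8.66, 8.78, 8.73 and 8.66 with vehicle. The groups did not overlap, and the difference was 0.22 (SE 0.040, 95% interval 0.13 to 0.31, adjusted p = 0.0961). Its dimmer probe set averaged 7.64 with GW9662 and 7.30 with vehicle, a difference of 0.34 (SE 0.081, adjusted p = 0.166), and there the groups overlapped. SLC12A2 passed in 1 of 21 alternatives, the fit of all 15 arrays.

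SLC43A2, a carrier of branched-chain and aromatic amino acids, was at 5.97, 5.95, 5.97, 5.91 and 5.88 with GW9662, against 6.24, 6.2, 6.35, 6.12 and 6.55 with vehicle. The GW9662 arrays again lay below every vehicle array, and the difference was -0.36 (SE 0.072, 95% interval -0.52 to -0.19, adjusted p = 0.12). SLC43A2 too passed only in the fit of all 15 arrays, among the 21 alternatives run. SLC38A2, the sodium-coupled carrier of small neutral amino acids that is induced when amino acids run short, had a bright and a dimmer probe set. The bright one was at 12.40, 12.38, 12.44, 12.56 and 12.44 with GW9662, against 12.31, 12.10, 12.27, 12.39 and 12.41 with vehicle, which overlap. The dimmer one was at 7.27, 7.18, 6.82, 6.81 and 7.05 with GW9662, against 6.53, 6.56, 6.66, 6.27 and 6.39 with vehicle, which do not. The differences were 0.15 (SE 0.061, adjusted p = 0.222) and 0.54 (SE 0.11, adjusted p = 0.12). With the probe sets of a gene averaged, SLC38A2 was higher by 0.35 with an adjusted p of 0.0245.

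**Figure D1:**
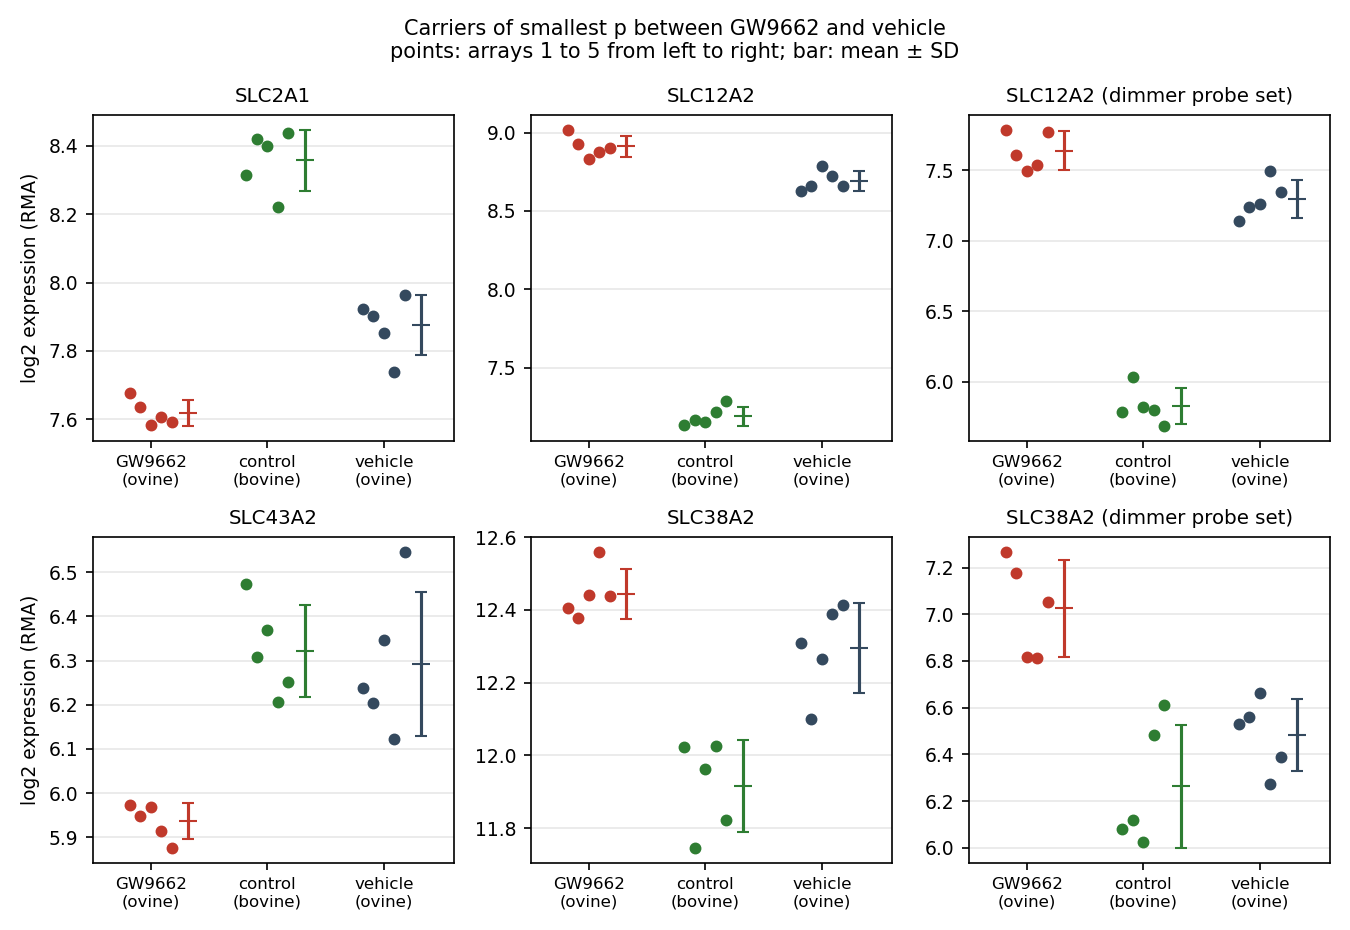
Log2 expression (vertical axis, its range set per panel) of carriers with low p-values between GW9662 and vehicle, with 1 point per array in ovine GW9662, bovine control and ovine vehicle cells and the mean ± SD beside them. GW9662 and vehicle arrays do not overlap for SLC2A1, SLC43A2, the brighter SLC12A2 probe set and the dimmer SLC38A2 probe set, yet none of them passed the threshold.

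Those 4 were the only carrier probe sets above the dim range whose GW9662 and vehicle arrays did not overlap. They make 5.97% of 67 such carrier probe sets, near the 5.43% of all probe sets in that range, with 2 higher (3.53% of all) and 2 lower (1.89% of all). Over all brightnesses, 47 of 194 carrier probe sets (24.2%) did not overlap, against 14.6% of all. The other 43 were dim, and all of them were lower with GW9662. They make 33.9% of the 127 dim carrier probe sets, against 25.4% of all dim probe sets that lay lower without overlap. The median difference of the 127 dim carrier probe sets was -0.017, beside -0.021 for the 11028 dim probe sets of the whole array, of which 9950 were negative. The downward drift of dim probe sets was therefore shared by the array at large, although the carrier share without overlap was higher.

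Above the dim range, 33 of 60 carrier genes had a positive difference and 27 a negative one. Their median was 0.015, beside 0.010 for all 6303 genes in that range. The 95% intervals of 50 of the 60 lay within ±0.5 on the log2 scale, a change of 1.41-fold, and those of 58 lay within ±1. The exceptions at ±1 were SLC35E3 and SLC8A1, where vehicle replicate 1 differed from its group. For most carriers with a measurable signal a 2.0-fold change in either direction thus lay outside the interval, although intervals within ±0.25 were reached by only 16 of the 60.

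SLC8A1, the sodium and calcium exchanger of the plasma membrane, was at 5.67 in vehicle replicate 1 and at 3.61 to 4.08 in the other vehicle arrays, with 3.45 to 3.81 under GW9662. Its difference of -0.60 (SE 0.35, adjusted p = 0.294) was -0.24 without that array. SLC35E3, a member of the nucleotide sugar carrier family, was at 6.42 to 6.73 with GW9662, against 5.23 in vehicle replicate 1 and 6.09 to 6.44 in the other vehicle arrays. Its difference of 0.53 (SE 0.22, adjusted p = 0.222) was 0.32 without that array.

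By class, no difference passed, and the values are given as a description. Some carriers of the Golgi and endoplasmic reticulum supply nucleotide sugars, sulfate donors and acetyl-CoA for the modification of proteins and lipids. Their class, set by gene family and not by a known substrate of each member, had 15 of 20 genes above the dim range. Of these, 14 were higher with GW9662, where 3330 of all 6303 genes above the dim range were, and 1, SLC35B2, was lower. The median of the 15 was 0.10. After SLC35E3 the largest difference was that of SLC35A3, the carrier of UDP-N-acetylglucosamine, at 0.32 (SE 0.14, adjusted p = 0.229). SLC35F5 was at 9.88, 9.90, 9.83, 9.96 and 9.73 with GW9662, against 9.53, 9.56, 9.73, 9.74 and 9.54 with vehicle, which overlap, and it differed by 0.24 (SE 0.058, adjusted p = 0.169). All 3 SLC35A5 probe sets above the dim range were higher, by 0.19, 0.30 and 0.41, with adjusted p-values of 0.226, 0.217 and 0.196. The class was less one-sided after a second quantile normalisation, with 9 of 15 higher and a median of 0.014, and when the 3′ minus 5′ control difference entered the fit, with 10 of 15 higher. That control difference does not overlap between GW9662 and vehicle arrays, so the fit cannot fully separate the drug from it. Without vehicle replicate 1 the class had 13 of 15 higher and a median of 0.079. Without vehicle replicate 2 it had 11 of 15 higher and a median of 0.063, without vehicle replicate 4 it had 11 of 15 higher and a median of 0.11, and without vehicle replicate 5 the median was 0.19.

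Amino acid carriers ran the other way in number. Of 22 genes, 11 were above the dim range, where 3330 of all 6303 genes were positive. Of the 11, 3 were positive and 8 negative, with a median of -0.042. The median became 0.000169 when arrays were centred on their median, with 6 of 11 positive, and -0.25 when the 3′ minus 5′ control difference entered the fit. It was -0.082 without vehicle replicate 1, -0.084 without vehicle replicate 5, -0.07 with array weights and -0.035 to -0.063 when each other array was left out. SLC7A1, the cationic amino acid carrier that brings arginine into endothelial cells, averaged 4.48 ± 0.19 with GW9662 and 4.56 ± 0.18 with vehicle (SD, 5 arrays each), a difference of -0.08 (SE 0.11). SLC7A5, the carrier of large neutral amino acids, differed by 0.05 (SE 0.17), and SLC3A2, the heavy chain that takes it to the membrane, by -0.15 (SE 0.10). SLC1A5, a glutamine carrier, differed by 0.01 (SE 0.14), and SLC1A4, a carrier of alanine, serine and cysteine, by less than 0.01 in size (SE 0.11). The groups overlapped for all 5 genes.

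In the smaller classes, the copper importer SLC31A1 averaged 8.45 ± 0.15 with GW9662 and 8.69 ± 0.12 with vehicle, a difference of -0.24 (SE 0.082, adjusted p = 0.217). The iron carrier SLC11A2 averaged 4.53 ± 0.18 with GW9662 and 4.24 ± 0.17 with vehicle, a difference of 0.29 (SE 0.10, adjusted p = 0.217). SLC29A1, the equilibrative nucleoside carrier that takes up adenosine, was at 8.99, 8.83, 8.93, 9.01 and 8.94 with GW9662, against 8.98, 9.22, 9.26, 9.04 and 9.09 with vehicle, a difference of -0.18 (SE 0.058, adjusted p = 0.217). These 3 sets of arrays overlapped between the groups.

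Further values lay closer to 0 or had a wider spread. The carnitine carrier SLC22A5 differed by 0.22 (SE 0.095, adjusted p = 0.23) and the choline carrier SLC44A2 by -0.15 (SE 0.055, adjusted p = 0.217). The lysosomal sialic acid exporter SLC17A5 differed by 0.22 (SE 0.10, adjusted p = 0.238) and the lysosomal peptide and histidine carrier SLC15A4 by 0.18 (SE 0.098, adjusted p = 0.276). The phosphate carriers SLC20A1 and SLC20A2 differed by -0.09 (SE 0.050) and -0.02 (SE 0.075). Both prostaglandin and steroid carriers of the SLCO2 family were near 0 against their error, SLCO2A1 at -0.14 (SE 0.12) and SLCO2B1 at -0.04 (SE 0.037). The fatty acid carriers, a family that PPAR receptors are known to regulate in other tissues, had 1 of 5 genes above the dim range. This was SLC27A6, which averaged 3.24 ± 0.061 with GW9662 and 3.37 ± 0.092 with vehicle, a difference of -0.14 (SE 0.047, adjusted p = 0.217). The lysosomal sugar carrier SLC2A6 differed by -0.08 (SE 0.16) and the riboflavin carrier SLC52A2 by 0.11 (SE 0.087). Of the 2 genes that are no carriers, SLC4A1AP differed by 0.08 (SE 0.058) and SLC7A6OS by 0.44 (SE 0.17, adjusted p = 0.218). Of the dim genes, SLC2A3 averaged 2.83 with GW9662 and 2.61 with vehicle (adjusted p = 0.218), and SLC19A1 averaged 2.46 with GW9662 and 2.72 with vehicle (adjusted p = 0.234).

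**Figure D2:**
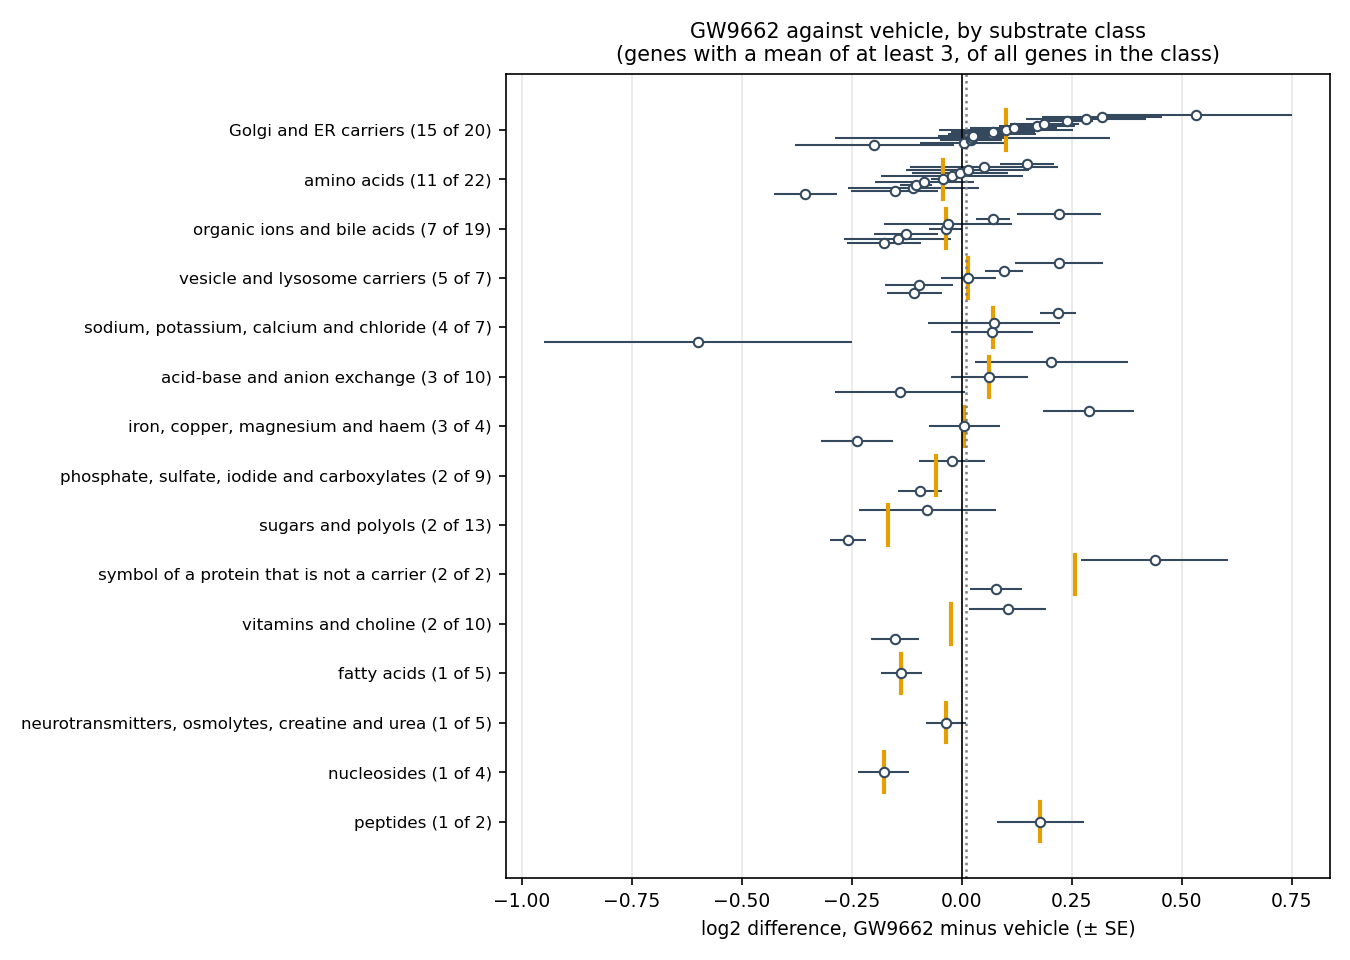
Log2 difference, GW9662 minus vehicle, with its standard error (horizontal axis) for the 60 carrier genes above the dim range, in rows by substrate class with the number of such genes of all genes in the class. Open points did not pass the threshold, as was the case for all 60. The orange bar is the class median and the dotted line the median of all genes above the dim range, 0.010. Of 15 Golgi and endoplasmic reticulum genes 14 lie right of 0, where 3330 of all 6303 genes in that range were positive.

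Partners and regulators of carriers, such as sodium pump subunits, the chaperone BSG and the kinases that control ion carriers, gave 0 calls among 13 measured genes of 24. SGK1, a kinase that raises the surface level of several carriers, averaged 12.08 with GW9662 and 11.90 with vehicle, a difference of 0.17 (SE 0.043, adjusted p = 0.178).

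The second comparison set the bovine cells against ovine vehicle cells. Its largest carrier differences were higher signals in bovine cells for organic anion, prostaglandin and arginine carriers, and lower ones for the chloride-loading cotransporter and the lysosomal sialic acid exporter. Species and the source of the cells (BAEC or PAEC) differ together, treatment of the bovine cells with vehicle is not stated, and ovine RNA was read with bovine probes. These cannot be told apart here, and a low ovine signal bounds no difference in expression. The comparison uses the same vehicle arrays as the first one.

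In all, 89 of 194 carrier probe sets passed (45.9%), where 45.2% of all probe sets did. Of them 20 were higher in bovine cells (10.3%, against 15.6% of all) and 69 lower (35.6%, against 29.6% of all). By gene, 66 of 139 passed (47.5%, against 49.2% of all genes), 16 higher (21.9% of all genes) and 50 lower (27.3% of all genes). Of the 69 lower calls, 47 were dim. These were 47 of 128 dim carrier probe sets, all of them lower in bovine cells, beside 36.1% of all dim probe sets lower and 37.0% that passed in either direction. Their median difference was -0.038, the largest was 0.139 in size, and 44 of the 47 were under 0.1. When arrays were centred on their median, 40 carrier probe sets passed, 21 higher and 19 lower, and when the 3′ minus 5′ control difference entered the fit 14 passed, 6 higher and 8 lower. Calls of dim carriers are therefore given by count, and by name only where a list or a turn of sign is described.

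**Figure D3:**
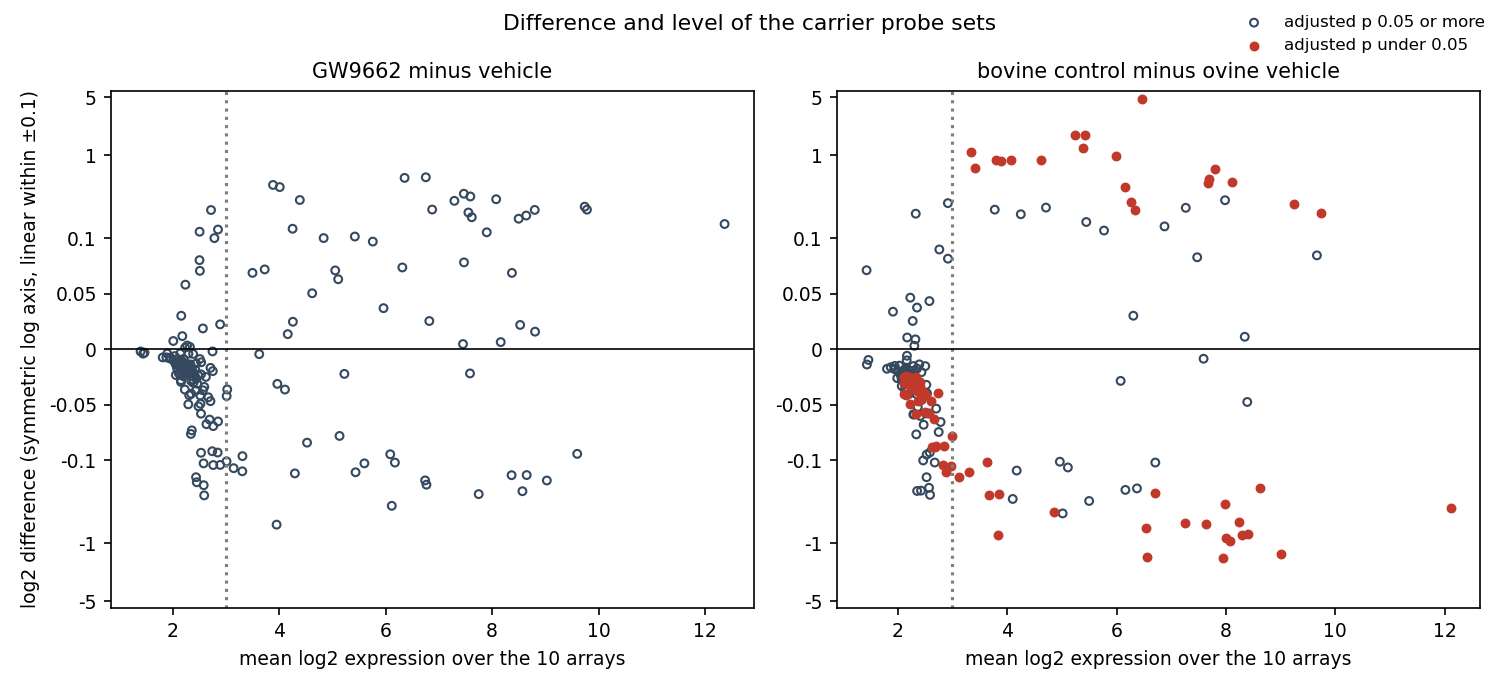
Log2 difference (vertical axis, linear within ±0.1 and logarithmic beyond) against mean log2 expression over the 10 arrays of the comparison for the 194 carrier probe sets, on the left for GW9662 minus vehicle and on the right for bovine control minus ovine vehicle. Left of the dotted line at 3 the points crowd just below 0 in both panels, and the 47 dim probe sets that passed on the right are all negative.

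Above the dim range, 42 of 66 carrier probe sets passed (63.6%, against 52.1% of all in that range), 20 higher (27.9% of all) and 22 lower (24.3% of all). By gene there were 35 of 58 (60.3%, against 54.5% of all genes in that range), 16 higher (31.1% of all) and 19 lower (23.4% of all). The arrays did not overlap for 30 of the 58 genes (51.7%, against 44.7% of all genes in that range). The median difference over the 58 was -0.019, beside 0.043 for all genes in that range. Their median size was 0.29 on the log2 scale, beside 0.25 for all genes in that range.

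SLCO2B1, an uptake carrier of steroid sulfates and many drugs, had the largest difference of the 139 genes. It was at 8.73, 8.80, 8.79, 8.84 and 8.88 in bovine cells, against 4.10, 4.16, 4.07, 4.06 and 4.24 in ovine vehicle cells. Every bovine array lay far above every ovine one, by 4.68 on average (SE 0.041, adjusted p = 1.48e-11), a 25.7-fold higher signal. Its dimmer probe set averaged 3.88 in bovine and 2.79 in vehicle cells, a difference of 1.09 (adjusted p = 0.000823). The vehicle mean there is under 3, where a value may mean a low level or none. With GW9662 the bright probe set was at 4.06 to 4.15, against 4.06 to 4.24 with vehicle.

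SLCO2A1, the prostaglandin carrier, was at 6.19, 6.02, 5.98, 5.99 and 6.38 in bovine cells, against 4.33, 4.32, 4.54, 4.17 and 4.47 in ovine vehicle cells. The groups did not overlap, and the difference was 1.75 (SE 0.096, adjusted p = 1.17e-06), a 3.36-fold higher signal. The other organic ion carriers above the dim range were all lower in bovine cells or did not pass. The lipocalin receptor SLC22A17 differed by -0.25 (SE 0.073, adjusted p = 0.0237), with bovine replicate 4 at 6.41 below the other bovine arrays at 6.61 to 6.62. SLCO1A2, SLC22A9 and SLC10A3, named here after their values were seen to complete the class, differed by -0.26, -0.16 and -0.10 with adjusted p-values of 0.0493, 0.0435 and 0.0396. SLC22A5 did not pass (-0.11, SE 0.13).

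Amino acid carriers differed in both directions, with 3 higher and 2 lower of 10 genes above the dim range. SLC7A1 was at 6.15, 6.67, 6.14, 6.21 and 6.31 in bovine cells, against 4.36, 4.54, 4.77, 4.73 and 4.41 in ovine vehicle cells. The difference was 1.73 (SE 0.12, adjusted p = 5.96e-06), a 3.32-fold higher signal, with no overlap. SLC1A4 averaged 4.5 ± 0.25 in bovine and 3.62 ± 0.15 in vehicle cells, a difference of 0.87 (SE 0.12, adjusted p = 0.00061). SLC7A7, a light chain that exchanges cationic for neutral amino acids, averaged 3.76 ± 0.26 in bovine and 3.06 ± 0.079 in vehicle cells, a difference of 0.70 (SE 0.12, adjusted p = 0.00168).

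The heavy chain that carries such light chains to the membrane, SLC3A2, was lower in bovine cells. It was at 7.50, 7.82, 7.45, 7.51 and 7.59 in bovine cells, against 8.24, 8.53, 8.73, 8.33 and 8.38 in ovine vehicle cells, a difference of -0.87 (SE 0.10, adjusted p = 0.000182). The bright SLC38A2 probe set averaged 11.92 ± 0.13 in bovine and 12.30 ± 0.12 in vehicle cells, a difference of -0.38 (SE 0.075, adjusted p = 0.00468), while its dimmer one differed by -0.22 and did not pass (adjusted p = 0.177). SLC7A5 (0.23, SE 0.15), SLC1A5 (0.19, SE 0.12) and SLC43A2 (0.03, SE 0.082) did not pass.

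Among ion carriers the largest difference was that of SLC12A2. Its bright probe set was at 7.13, 7.17, 7.15, 7.22 and 7.29 in bovine cells, against 8.62, 8.66, 8.78, 8.73 and 8.66 in ovine vehicle cells. The difference was -1.50 (SE 0.038, adjusted p = 6.43e-09), a 2.83-fold lower signal, and the dimmer probe set gave -1.47 (adjusted p = 9.94e-07). The potassium and chloride cotransporter SLC12A4, which moves chloride out of the cell, did not pass (-0.23, SE 0.15), nor did SLC8A1 (-0.29, SE 0.35). The mitochondrial exchanger SLC8B1 was at 4.21, 4.44, 4.35, 4.38 and 4.23 in bovine cells, against 3.34, 3.45, 3.40, 3.56 and 3.56 in ovine vehicle cells, a difference of 0.86 (SE 0.058, adjusted p = 4.9e-06).

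All 3 acid and base carriers above the dim range passed. SLC4A2, which exchanges chloride for bicarbonate, was at 6.45, 6.46, 6.45, 6.31 and 6.77 in bovine cells, against 5.53, 5.58, 5.86, 5.45 and 5.10 in ovine vehicle cells, a difference of 0.99 (SE 0.14, adjusted p = 0.000517). SLC4A7, a cotransporter of sodium and bicarbonate, averaged 8.13 ± 0.20 in bovine and 7.45 ± 0.37 in vehicle cells, a difference of 0.68 (SE 0.18, adjusted p = 0.0173). SLC26A11, of the sulfate and anion exchanger family and named after its values were seen, averaged 4.65 ± 0.19 in bovine and 5.08 ± 0.19 in vehicle cells (-0.42, adjusted p = 0.0178), with overlapping arrays.

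Metal carriers above the dim range were lower in bovine cells or did not pass. SLC31A1, the copper importer, was at 7.72, 7.94, 7.76, 8.10 and 7.98 in bovine cells, against 8.49, 8.71, 8.81, 8.70 and 8.72 in ovine vehicle cells. The groups did not overlap, and the difference was -0.79 (SE 0.084, adjusted p = 9.33e-05). The related SLC31A2, named after its values were seen, differed by -0.34 (SE 0.077, adjusted p = 0.00872), and SLC11A2 did not pass (-0.13, SE 0.086).

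SLC2A1 was at 8.31, 8.42, 8.40, 8.22 and 8.44 in bovine cells, all above the ovine vehicle arrays at 7.74 to 7.96. The difference was 0.48 (SE 0.053, adjusted p = 0.000125). Over the 3 groups the order of its level was bovine, ovine vehicle, ovine GW9662, with no overlap between neighbours, although the step between the ovine groups did not pass its test. SLC29A1 was higher in bovine cells by 0.26 (SE 0.059, adjusted p = 0.00976) and the phosphate carrier SLC20A1 by 0.20 (SE 0.053, adjusted p = 0.0182), while SLC20A2 differed by -0.01 (SE 0.074). The choline carrier SLC44A2 gave opposite calls on its 2 probe sets above the dim range. The bright one averaged 8.51 in bovine and 8.73 in vehicle cells (-0.22, adjusted p = 0.0142), and the other one averaged 6.41 in bovine and 6.13 in vehicle cells (0.28, adjusted p = 0.0179), so no direction is given for this gene. SLC27A6 averaged 3.23 ± 0.0088 in bovine and 3.37 ± 0.092 in vehicle cells, a difference of -0.14 (SE 0.040, adjusted p = 0.023) with overlapping arrays. With the 3′ minus 5′ control difference in the fit it was 0.045. SLC2A6, SLC52A2, SLC4A1AP and SLC7A6OS did not pass, with differences of -0.12, 0.16, 0.08 and 0.22. Of 7 genes with several probe sets above the dim range, the other 6 had the same sign on each, but not always the same size or call. SLC35E2B differed by 0.011 and 0.885 and SLC35A4 by 0.139 and 0.415, each with 1 of 2 probe sets called. Both are named after their values were seen.

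**Figure D4:**
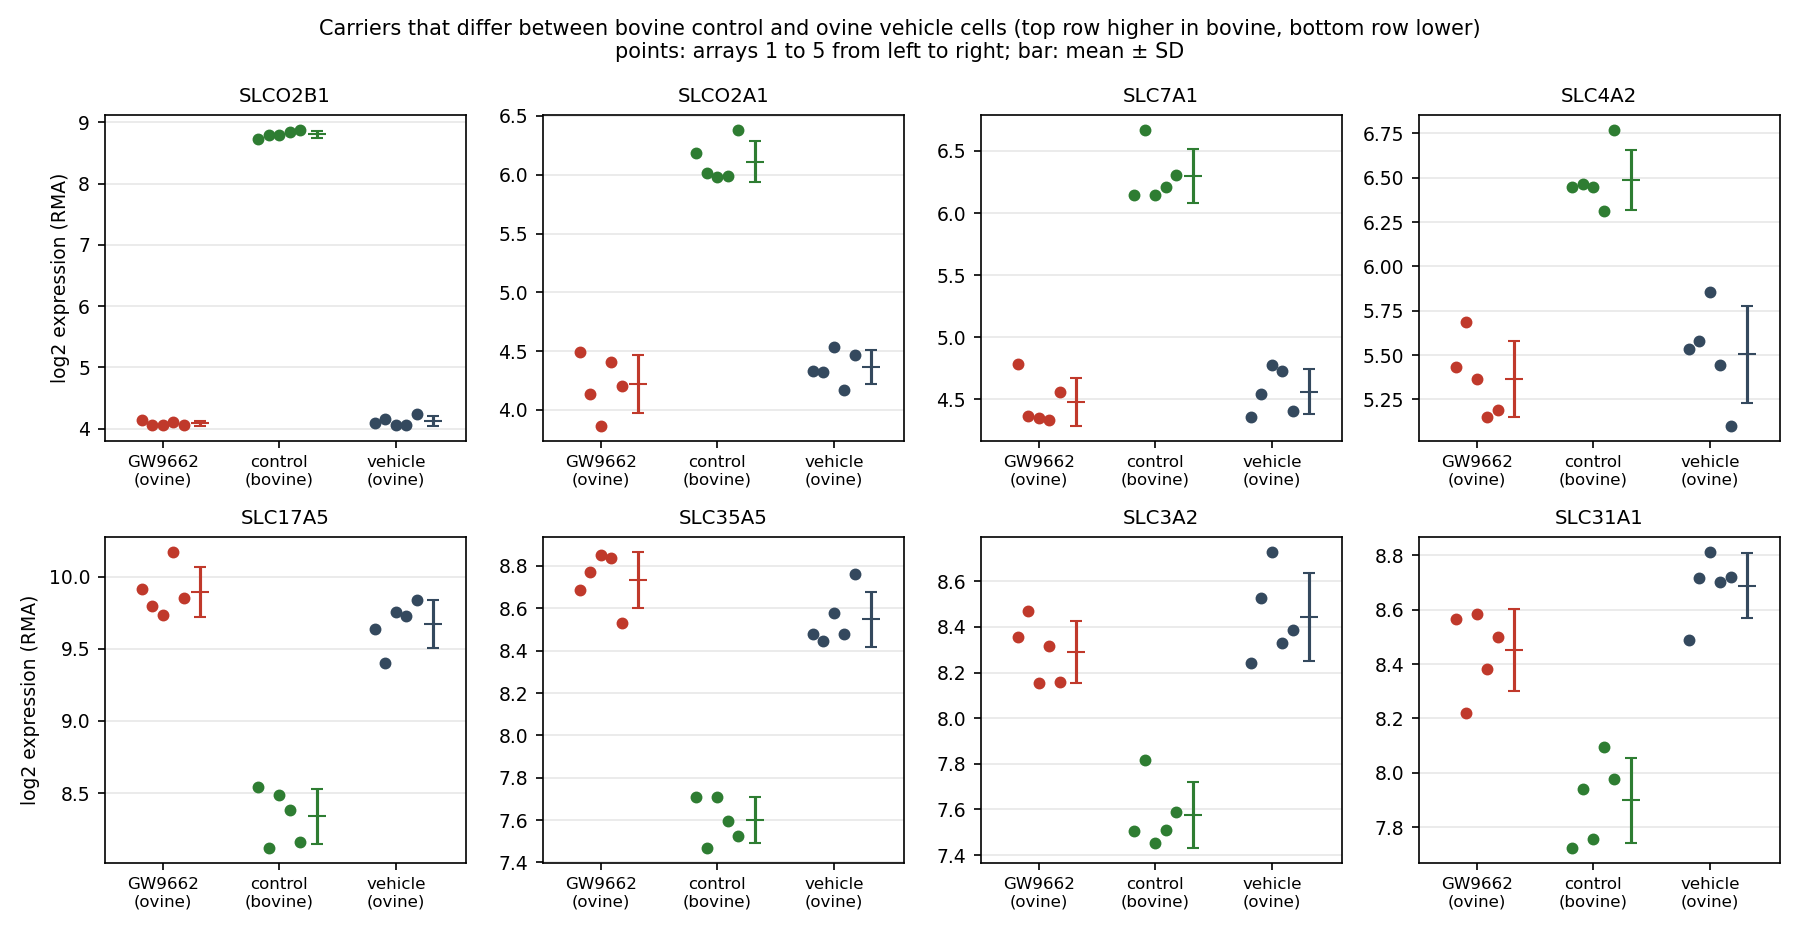
Log2 expression (vertical axis, its range set per panel) of 8 carriers with called differences between bovine control and ovine vehicle cells, with 1 point per array in each of the 3 groups and the mean ± SD beside them. The top row is higher and the bottom row lower in bovine than in ovine vehicle cells, with no overlap in any panel.

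Carriers inside the cell split in both directions as well. SLC17A5 was at 8.54, 8.12, 8.49, 8.39 and 8.16 in bovine cells, against 9.64, 9.40, 9.76, 9.72 and 9.84 in ovine vehicle cells, a difference of -1.33 (SE 0.11, adjusted p = 1.45e-05) and a 2.52-fold lower signal. SLC17A9, which loads ATP into vesicles, averaged 4.24 ± 0.26 in bovine and 3.36 ± 0.072 in vehicle cells, a difference of 0.89 (SE 0.11, adjusted p = 0.000316). SLC15A4 was lower in bovine cells, with a difference of -0.57 (SE 0.10, adjusted p = 0.00242). The lysosomal cationic amino acid exporter SLC66A1 did not pass (0.12, adjusted p = 0.0527). Its relatives SLC66A3 and SLC66A2, named after their values were seen, differed by -0.78 (adjusted p = 2.51e-05) and 0.22 (adjusted p = 0.0147).

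Of 15 Golgi and endoplasmic reticulum carriers above the dim range, 3 were higher and 4 lower in bovine cells. SLC35D2, a carrier of nucleotide sugars, was at 6.16, 6.15, 6.0, 5.73 and 5.91 in bovine cells, against 4.70, 4.63, 4.90, 4.72 and 4.98 in ovine vehicle cells, a difference of 1.21 (SE 0.098, adjusted p = 1.6e-05). SLC35A3 was higher by 0.52 (SE 0.12, adjusted p = 0.0104). Its call was kept in 20 of 21 alternatives and lost with the 3′ minus 5′ control difference in the fit. Over the 21 its difference ranged from 0.0043 to 0.59. SLC35A5 was at 7.71, 7.47, 7.71, 7.60 and 7.52 in bovine cells, against 8.48, 8.45, 8.58, 8.48 and 8.76 in ovine vehicle cells, a difference of -0.95 (SE 0.072, adjusted p = 1.02e-05). Its other probe sets above the dim range gave -0.59 and -0.26, and both passed.

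SLC35G2 averaged 3.44 ± 0.052 in bovine and 4.24 ± 0.64 in vehicle cells, and its call (-0.81, adjusted p = 0.0396) was kept in 9 of 20 alternatives. With the 3′ minus 5′ control difference in the fit its difference was 0.63, in the opposite direction. Named after their values were seen, SLC35F6 was higher by 0.46 (adjusted p = 0.00718), and SLC35B2, the carrier of the sulfate donor, and SLC35B1 were lower, with differences of -0.65 (adjusted p = 0.00305) and -0.55 (adjusted p = 0.000387). The CMP-sialic acid carrier SLC35A1 (0.29, adjusted p = 0.0542), the UDP-galactose carrier SLC35A2 (0.23, adjusted p = 0.133) and the acetyl-CoA carrier SLC33A1 (-0.05, adjusted p = 0.638) did not pass.

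**Figure D5:**
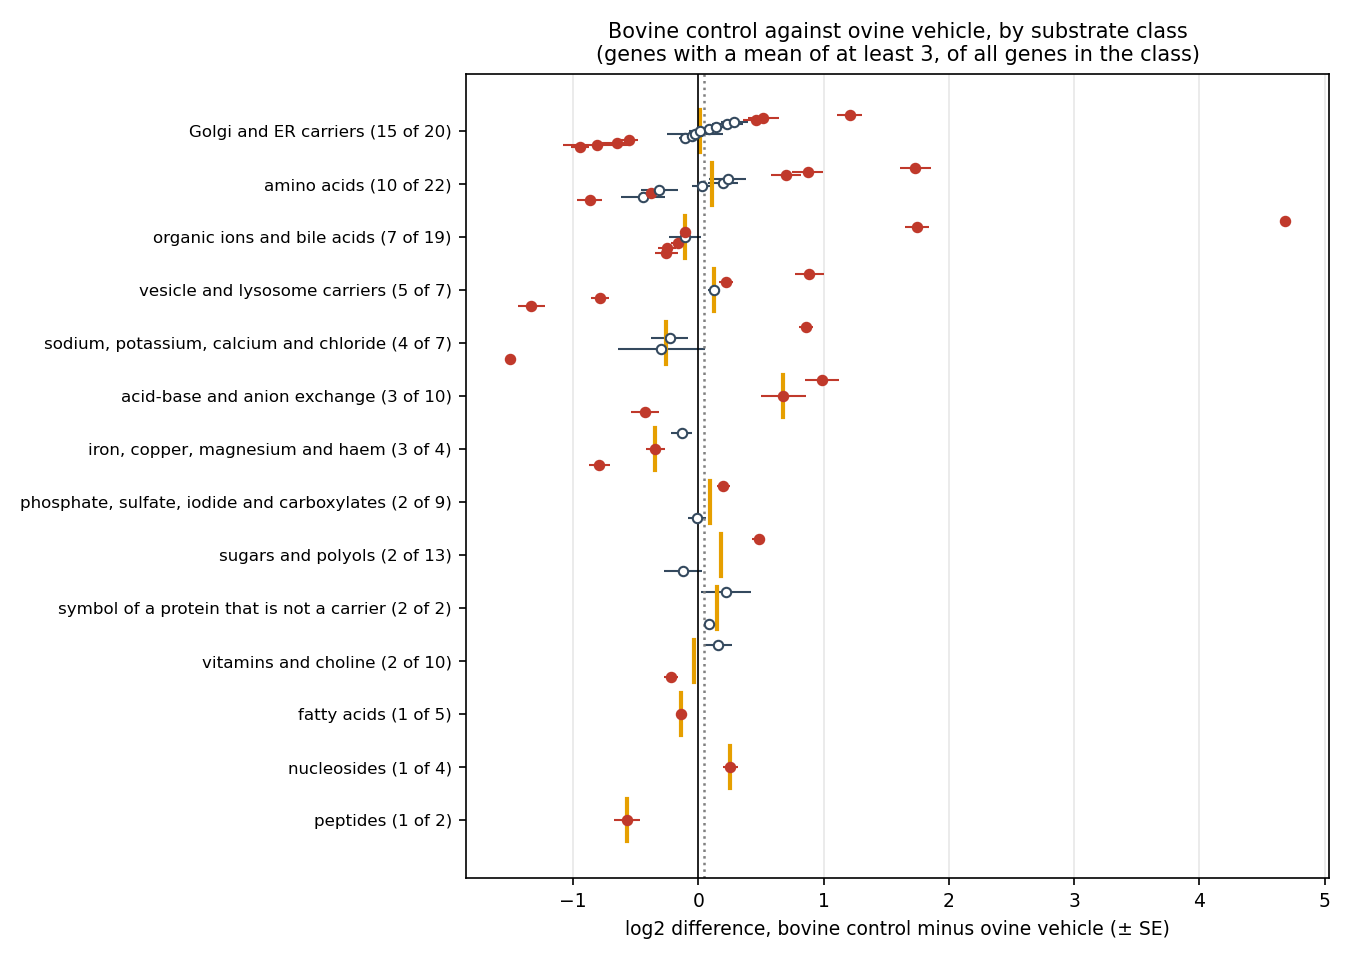
Log2 difference, bovine control minus ovine vehicle, with its standard error (horizontal axis) for the 58 carrier genes above the dim range, in rows by substrate class with the number of such genes of all genes in the class. Filled red points passed the threshold and open points did not, the orange bar is the class median and the dotted line the median of all genes above the dim range, 0.043; SLCO2B1 lies alone at 4.68, and the classes with more than 2 red points hold them on both sides of 0.

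Among 36 named carriers that passed in this comparison, 10 passed in every alternative setting run for them: SLC12A2, SLC17A5, SLC2A1, SLC31A1, SLC35A5, SLC3A2, SLC7A1, SLC8B1, SLCO2A1 and SLCO2B1. Of the 25 measured genes known from endothelial or PPAR biology, 7 were higher in bovine cells (21.9% of all genes were), 5 lower on their brightest probe set (27.3% of all genes were) and 13 did not pass. Among the 5, SLC1A1 was dim and SLC44A2 had the opposite call on its other probe set.

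Carrier partners and regulators also differed, with 3 of 13 measured genes higher in bovine cells and 7 lower, where 21.9% of all genes were higher and 27.3% lower. Of the 7, ATP1B2, WNK2 and CA4 were dim, with differences of -0.03, -0.05 and -0.03. ATP1B1, a beta subunit of the sodium pump, averaged 6.07 in bovine and 8.42 in vehicle cells, a difference of -2.34 (SE 0.20, adjusted p = 1.95e-05). The brighter beta subunit ATP1B3 went the other way, at 10.58 in bovine and 10.29 in vehicle cells (0.29, adjusted p = 0.000275). FXYD6 was higher in bovine cells by 2.12 (adjusted p = 8.92e-06). FXYD5 and BSG were lower, with differences of -0.67 (adjusted p = 0.000166) and -0.61 (adjusted p = 0.000202). SGK1 averaged 10.88 in bovine and 11.90 in vehicle cells, a difference of -1.02 (SE 0.047, adjusted p = 3.34e-07). NEDD4L, a ubiquitin ligase that removes carriers and channels from the membrane and is itself inhibited by SGK1, averaged 6.13 in bovine and 4.12 in vehicle cells, a difference of 2.01 (SE 0.083, adjusted p = 1.65e-07).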

How the data were processed

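Total RNA of 15 samples was hybridised to Affymetrix bovine arrays, 1 per sample. The authors deposited log2 values made with RMA, per the submitters' processing notes. Its version and chip definition file are not given in the sources used here. Whether bovine and ovine arrays were normalised together is not given either. RMA corrects background, quantile-normalises arrays and summarises the probes of a probe set, so levels are relative to the array and are not compared between probe sets. Of 24128 probe sets, 112 are controls and 24016 were tested. The platform annotation names 1 symbol for 13292 of these, several for 86 and none for 10638. In a sheep RefSeq gene table, used for names only, 134 of the 139 symbols were found. Arrays carry no read depth, and their number limits the precision.

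For each comparison the 10 arrays of its groups were fitted by limma 3.58.1 (lmFit, then eBayes, R 4.3.3). P-values were adjusted by Benjamini-Hochberg over the 24016 and called under 0.05, and all adjusted p-values are limma's. The fit was also run on simulated data with known changes and independent noise. Those data held no array-wide shift or outlying array, so that run cannot speak to such effects here. A mean under 3 defined the dim range. Means are given with their SD over 5 arrays. The genes, classes and lists were chosen with earlier results of these data known, so no list is tested and no count is independent support. Named genes were, per class, up to 2 of smallest p for GW9662, the genes of largest change among bovine and ovine calls without overlap (up to 2 per direction in classes of 10 or more genes, 1 in smaller ones), and 28 genes of endothelial or PPAR biology, of which 25 are described here. Other genes are marked as named after their values were seen. Alternatives were array centring, a second quantile normalisation, filters at 3 and 4, a trended robust variance, array weights, all 15 arrays in one fit, a replicate block, a covariate for the 3′ minus 5′ control difference, 1 probe set per gene, the mean over a gene's probe sets, and leaving out each array.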

Additional observations from a re-analysis of the deposited data

Results flagged for a closer look

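In 177 sets of 5 arrays (59 named genes in 3 groups), 17 held an array far from the other 4 by Dixon's criterion, where chance alone gives about 1 in 20 sets. Of the 17, 4 were vehicle replicate 1. In that array SLC8A1 was high at 5.67 (others 3.61 to 4.08), SLC35E3 low at 5.23 (others 6.09 to 6.44), SLC7A5 low at 4.04 (others 4.69 to 4.76) and the dim SLC1A1 high at 2.57 (others 2.52 to 2.54). Without this array the difference of SLC7A5, GW9662 minus vehicle, was -0.09 in place of 0.05, and neither passed.

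In the GW9662 arrays, replicate 5 was high for 4 dim carriers, SLC10A1 at 2.83, SLC27A2 at 2.64, SLC5A1 at 2.52 and SLC6A6 at 2.35, each within 0.1 of the nearest array. Replicate 4 was high for SLC6A8 at 3.15 and low for SLC5A9 at 2.42. Replicate 3 was high for SLC4A1AP at 7.74 (others 7.43 to 7.47) and for SLC13A4 at 2.96 (others 2.66 to 2.75).

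In the bovine arrays, replicate 2 was high for SLC20A1 at 9.99 (others 9.80 to 9.84) and SLC27A4 at 3.24 (others 2.69 to 2.70). Replicate 4 was low for SLC22A17 at 6.41 (others 6.61 to 6.62) and high for SLC7A5 at 5.10 (others 4.73 to 4.80). Replicate 3 was low for SLC6A8 at 2.80 (others 2.93 to 2.97).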

How the results depend on the processing

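For GW9662 minus vehicle, the count of carrier probe sets that passed was 0, against 3 with all 15 arrays in one fit, 1 with array weights, 1 with a filter at a mean of 4 and 0 to 1 when each array was left out (1 without vehicle replicate 4). By gene it was 1 with 1 probe set per gene (SLC2A1), 3 with all 15 arrays in one fit (SLC12A2, SLC2A1 and SLC43A2), 1 with array weights (SLC2A1), 1 with the mean over a gene's probe sets (SLC38A2) and 0 to 1 leaving out an array (SLC2A1, without vehicle replicate 4). The median difference over the 139 genes, -0.017, was 0.025 with centred arrays. With filters at 3 and 4 fewer genes remained, and the median was 0.015 over 60 genes and 0.025 over 48. For bovine minus ovine vehicle, the 89 probe sets became 14 with the 3′ minus 5′ covariate, 40 with centred arrays, 42 and 34 with filters at 3 and 4, 33 with the replicate block and 40 after a second quantile normalisation (16 higher, 24 lower). Leaving out an array gave 50 to 91, with 50 without bovine replicate 1, 53 without bovine replicate 2 and 56 without vehicle replicate 2. The 66 genes became 12, 34, 35, 29, 28 and 35 under the same settings, and 41 (without bovine replicate 1) to 66 when an array was left out. Other settings raised the counts. A trended robust variance gave 121 probe sets and 79 genes, all 15 arrays in one fit 114 and 79, and array weights 92 and 69. The median of -0.035 was -0.00259 with the covariate, -0.000942 with centred arrays and -0.00733 after the second quantile normalisation. The filters test fewer probe sets. The covariate separates the vehicle arrays from the bovine and from the GW9662 arrays without overlap. Fits with it therefore cannot fully separate group from covariate, in either comparison. The cause of the shifts was not tested.

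Among calls, the sign turned for 10 values, all in bovine minus ovine vehicle. With the covariate they were SLC1A1 at 0.0027, SLC27A2 at 0.086, SLC27A6 at 0.045, SLC35G2 at 0.63, SLC5A1 at 0.047, SLC6A11 at 0.013 and SLC9A3 at 0.0066. All of these but SLC27A6 and SLC35G2 were dim. The dim SLC4A1 was 0.0094 with centred arrays and 0.0014 after the second quantile normalisation, and SLC44A2 was 0.028 with its probe sets averaged. Over all settings, 27 of the 59 named genes that did not pass for GW9662, and 15 of 23 that did not pass for bovine minus ovine vehicle, had both signs. Single named genes lost a call 121 times and gained one 24 times without a turn of sign. Whether the replicate numbers pair the samples is not stated. The deviations of same-numbered arrays correlated at -0.19 to 0.17 for GW9662 and vehicle and -0.097 to 0.094 for bovine and vehicle. In these comparisons 2 and 1 of 10 arrays correlated best with their own number. The values show no sign of pairing but cannot exclude it. With the replicate block, 0 carriers passed for GW9662. The 2 settings that give 1 value per gene give no count of probe sets. Signal over background is not in the files, which limits what the dim probe sets can show.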
